A study of Bos taurus with 44 samples.

Results

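IGFBP2 and IGFBP6 are insulin-like growth factor binding proteins, and their transcripts were followed through every comparison of a cattle (Bos taurus) study on 44 two-colour arrays. The members were all probes that the supplied annotation pairs with the symbol IGFBP2 or IGFBP6 alone. Each gene had 1 probe, printed as 2 adjacent spots that were averaged, so the members are 2 of 13824 probes and 2 of the 8645 probes with 1 symbol. Insulin-like growth factors (IGF1 and IGF2) are secreted hormones that signal growth and survival through the type 1 receptor IGF1R. The binding proteins hold these hormones outside the cell and can withhold them from the receptor or carry and release them, and secreted proteases that cut a binding protein free its ligand. IGFBP2 carries an integrin-binding motif and also acts at the cell surface without ligand, and IGFBP6 prefers IGF2 over IGF1. In the uterus of ruminants, IGFs and their binding proteins are made by the lining and belong to the fluid that feeds the embryo before the placenta attaches.

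The study compared uterine tissue of cattle by the way the embryo was made. The tissue was either caruncular, from the raised areas where the placenta of ruminants attaches, or intercaruncular, from between them. IVF-ET animals (in vitro fertilisation and embryo transfer, named FIV, 5 animals) were set against AI animals (artificial insemination, named IAT, 5 per area) on 10 arrays in each area, with every animal once in each dye. SCNT (somatic cell nuclear transfer, cloning from a body cell, named NT) was set against AI (named IAJ) on 4 caruncular arrays of RNA pools, 2 pools per group, and the number of animals in a pool is not given in the sources used here. In intercaruncular tissue, 5 SCNT animals and 4 AI animals (also IAJ) were each set against 5 CJ animals on 10 arrays per group. Of the 10 AI arrays with CJ, AI animal 3 was on 4, of which 2 were a dye swap with CJ animal 3. The other AI animals were on 2 each, so array counts with CJ weigh AI animal 3 more. The labels tie CJ to the word cycle and give no breed, age or day for any group. All 5 IVF-ET and 3 of the IAT animals were measured in both areas. No individually labelled AI animal was on both the IVF-ET arrays and the arrays with CJ. AI animal 4 of one set is thus another animal than AI animal 4 of the other. Which animals made up the AI pools is not given in the sources used here.

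Each value is a log2 ratio of the 2 dyes, where 1 unit is a doubling. The numerator is not stated. The likely order is Cy5 over Cy3. It puts interferon-stimulated genes higher and the oxytocin receptor OXTR lower in SCNT and AI animals than in CJ animals, as early pregnancy is known to do in ruminants, so those genes are no finding here. Under the other reading every sign below turns. The number of animals limits the precision. The arrays had medians of -0.0164 to 0.0124 and SDs of 0.221 to 0.62. Over all probes, the 2 spots correlated within an array with r of 0.545 to 0.935. For both members all 44 arrays held a value, and the 2 spots correlated with r of 0.989 for IGFBP2 and 0.993 for IGFBP6 across arrays. A ratio gives no level of one gene against another, so the labelled tissue could be checked for relative marker content only.

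Some animals stood apart from their groups in the mean of 4 interferon-stimulated genes (ISG15, MX1, MX2 and RSAD2). In the arrays with CJ, AI animal 3 lay at -0.18 log2 units from the CJ mean, inside the CJ range of -0.22 to 0.38, while the other AI animals lay at 3.90, 4.24 and 5.18. In the intercaruncular arrays with IVF-ET, IVF-ET animal 4 and AI animal 4 lay at 4.23 and 4.19 from the AI mean. The other 8 animals of those arrays lay from -2.68 to 0.65. In caruncular tissue, IVF-ET animal 4 and AI animal 4 lay at -0.64 and 0.0014 from the AI mean, so only their intercaruncular samples stood high. Whether AI animal 3 was labelled correctly or was pregnant cannot be told from the files, so the AI group with CJ may hold 3 animals of one kind and 1 of another. Why the intercaruncular samples of IVF-ET animal 4 and AI animal 4 stood high cannot be told either. The intercaruncular IVF-ET and AI groups of those arrays may thus be mixed too. Member values in the comparisons with these intercaruncular samples are given with and without them where that changes a call or moves the value by over 1.5 times.

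**Figure D1:**
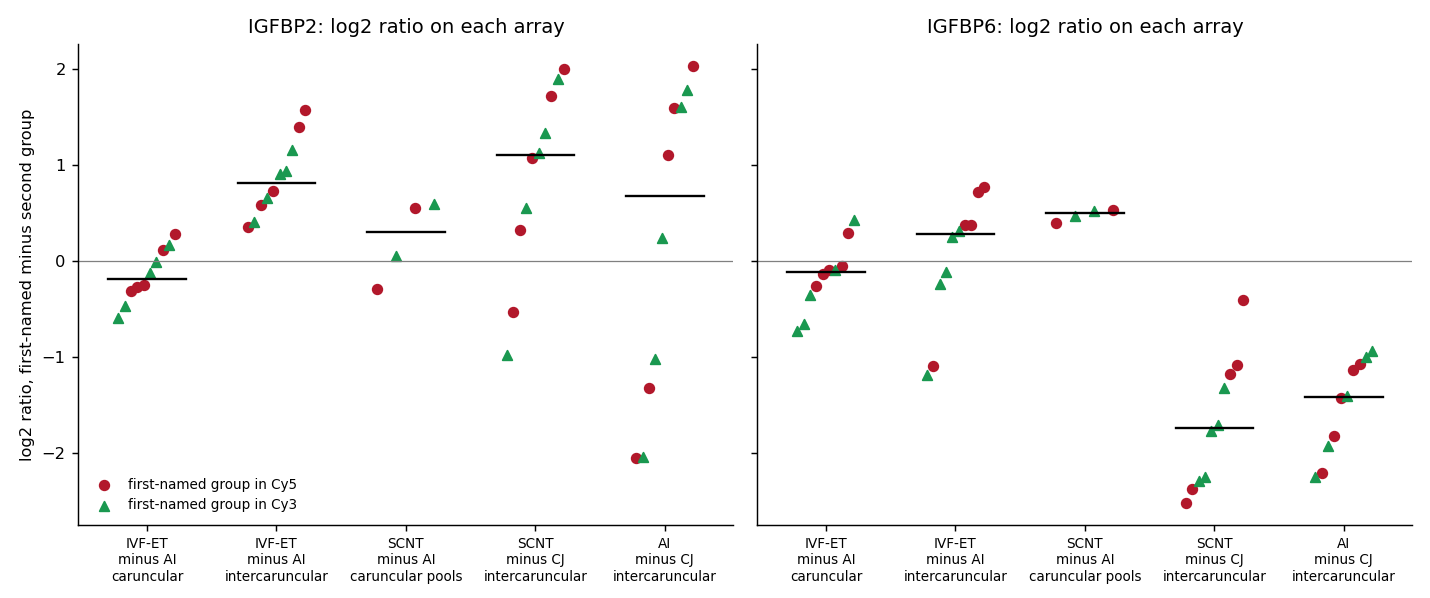
Log2 ratio of IGFBP2 (left) and IGFBP6 (right) on every array, as the first-named minus the second group, with the dye of the first-named group as the symbol and the median as a line. IGFBP2 lay above 0 on all 10 intercaruncular IVF-ET arrays, and IGFBP6 lay below 0 on all 20 arrays with CJ.

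The comparisons with CJ asked how intercaruncular tissue stood after cloning or insemination. IGFBP6 was lower in both. In SCNT animals 1 to 5, IGFBP6 lay at -1.98, -1.37, -1.26, -2.08 and -1.76 log2 units relative to the CJ mean. In CJ animals 1 to 5, it lay at 0.67, 0.14, -0.75, 0.49 and -0.54. Every SCNT animal was below every CJ animal, a separation seen downward in 5.82% of all probes. IGFBP6 fell by 1.69 ± 0.19 (SE) on the log2 scale in SCNT animals, a 3.23-fold difference (95% interval -2.08 to -1.30, limma adjusted p = 2.12e-06). It was lower on 10 of 10 arrays, whose values had a minimum of -2.52, a median of -1.74 and a maximum of -0.41, and 5.75% of all probes were lower on every array. In this comparison 11.3% of all probes were called lower, so a fall as such was common, and IGFBP6 had the 44th lowest difference of 13824 probes.

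AI animals had the same direction of IGFBP6 against the same CJ animals. AI animals 1 to 4 lay at -0.81, -2.01, -1.74 and -1.29. The groups did not overlap, as for 4.26% of all probes in this direction, but the margin was narrow, with -0.81 in AI animal 1 and -0.75 in CJ animal 3. IGFBP6 fell by 1.52 ± 0.20 on the log2 scale in AI animals, a 2.87-fold difference (95% interval -1.93 to -1.12, limma adjusted p = 2.11e-05). The 10 arrays ran from -2.25 through a median of -1.42 to -0.94, so all were negative, which held for 4.35% of all probes. Here 8.08% of all probes were called lower, and IGFBP6 had the 25th lowest difference. AI animal 3, whose interferon-stimulated genes were at the CJ level, had IGFBP6 at -1.74, inside the range of the other AI animals. Without that animal the difference was -1.63 (limma adjusted p = 5.04e-05). Both comparisons share the CJ animals, so their likeness is not independent.

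SCNT and AI were compared in this tissue only indirectly, through CJ, and IGFBP6 did not pass the test. The mean was -1.69 ± 0.36 in SCNT animals and -1.46 ± 0.53 in AI animals (SD, n = 5 and 4), and their ranges overlapped. The fitted difference was -0.17 ± 0.25 (95% interval -0.68 to 0.34, limma adjusted p = 0.991), against a background of 0.282% of probes called. With 1 animal left out it ran from -0.30 to -0.037, and it was -0.060 without AI animal 3. In order of level, CJ was highest, with AI and SCNT below it, and the last 2 did not differ beyond their spread.

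**Figure D2:**
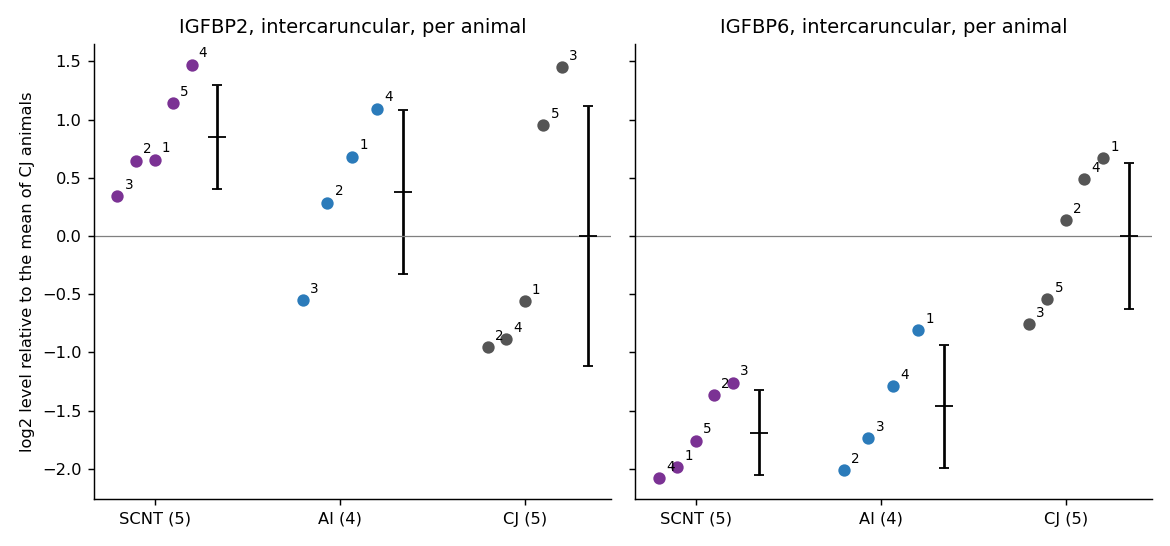
Level of IGFBP2 (left) and IGFBP6 (right) in each intercaruncular animal of the arrays with CJ, in log2 units relative to the mean of the CJ animals, with animal numbers and, beside each group, the mean ± SD. IGFBP6 separates SCNT and AI from CJ, while IGFBP2 in CJ spans from -0.95 to 1.45 and covers most of the other groups.

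IGFBP2 went the other way on most of these arrays, but CJ animals differed so much among themselves that no call was reached. SCNT animals 1 to 5 had IGFBP2 at 0.66, 0.65, 0.34, 1.47 and 1.14, and AI animals 1 to 4 at 0.68, 0.29, -0.55 and 1.10. CJ animals 1 to 5 had -0.56, -0.95, 1.45, -0.89 and 0.95. CJ animals 3 and 5 thus lay among the SCNT animals and the other 3 CJ animals lay below all of them. The SD was 0.45 in SCNT animals, 0.70 in AI animals and 1.12 in CJ animals.

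SCNT minus CJ was 0.85 ± 0.39 for IGFBP2, a 1.81-fold difference (95% interval 0.05 to 1.66, limma adjusted p = 0.13), with 8 of 10 arrays higher. It was not among the 21.7% of probes called in either direction. The 2 lower arrays, at -0.97 and -0.53, both held CJ animal 3. Leaving out that animal gave 1.26 (limma adjusted p = 0.00911), so 1 CJ animal decided on which side of the threshold the value fell. The fit without AI animal 3 kept 0.85 and had a smaller error (limma adjusted p = 0.0379).

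AI minus CJ was 0.29 ± 0.40 (95% interval -0.54 to 1.12, limma adjusted p = 0.812), with 6 of 10 arrays higher, where 15.0% of probes were called in either direction. The arrays ran from -2.05 through a median of 0.67 to 2.03. All 4 lower arrays held CJ animal 3 or 5, and AI animal 3 was on 3 of them, including its dye swap with CJ animal 3 (-2.05 and -2.04). Without AI animal 3 the difference was 1.18 (limma adjusted p = 0.0331), and without AI animal 4 it was -0.051 (limma adjusted p = 0.992).

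SCNT minus AI through CJ was 0.56 ± 0.50 for IGFBP2 (95% interval -0.48 to 1.60, limma adjusted p = 0.952), and without AI animal 3 it was -0.33. The animal means were 0.85 in SCNT, 0.38 in AI and 0 in CJ by construction, and no neighbours in that order differed beyond their spread. On single arrays the log2 ratio of IGFBP2 exceeded that of IGFBP6 on 9 of 10 SCNT arrays and on 7 of 10 AI arrays with CJ. IGFBP6 was below 0 on every one of these arrays, so the count says little about IGFBP2.

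The IVF-ET arrays asked whether tissue differed between animals given embryos made in vitro and inseminated animals. In intercaruncular tissue IGFBP2 was higher with IVF-ET on 10 of 10 arrays, from 0.36 through a median of 0.82 to 1.57, as were 0.203% of all probes. The mean was 0.93 on the 5 arrays with IVF-ET in Cy5 and 0.81 on the 5 with IVF-ET in Cy3, so it did not rest on one dye. IVF-ET animals 1 to 5 lay at 0.61, 0.40, 1.17, 1.29 and 0.87 relative to the AI mean. AI animals 1, 2, 3, 4 and 7 lay at -0.06, -0.04, -0.12, 0.58 and -0.35. The groups overlapped only because AI animal 4 lay above IVF-ET animal 2.

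The fitted difference was 0.87 ± 0.12, or 1.83-fold (95% interval 0.60 to 1.13). Its p was the second smallest of 13816 probes (limma p = 7.64e-06). The limma adjusted p of 0.0528 missed the threshold of 0.05, at which 0.00724% of probes were called. The correlation between arrays of an animal was estimated as 0 over all probes, so the fit took these arrays as independent. The values of IGFBP2 per animal had an SD of 0.37 in IVF-ET and 0.34 in AI animals, which also holds the noise of the arrays. As far as IGFBP2 itself varied between animals, its error and p may be too small. Without AI animal 4 the difference was 0.96 (limma adjusted p = 0.0858), and without IVF-ET animal 4 it was 0.83 (limma adjusted p = 0.478). None of 7 measured endothelial markers (of 9 listed) passed the test. Their mean per animal was 0.13 to 0.31 in IVF-ET animals and -0.08 to 0.11 in AI animals. No other marker list looked at had means without overlap in this tissue. Of the endothelial markers, 6 were positive and VWF stood at -0.03. In caruncular tissue the endothelial means overlapped, at -0.28 to 0.23 in IVF-ET animals and -0.22 to 0.28 in AI animals. The part of these markers in the IGFBP2 difference was not tested. The means of the stromal markers of the 2 groups overlapped, at -1.89 to 1.14 in IVF-ET animals and -2.20 to 1.09 in AI animals.

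In caruncular tissue IGFBP2 did not pass the test and leaned the other way. IVF-ET animals 1 to 5 lay at -0.07, -0.28, -0.25, -0.08 and -0.05, and AI animals 2, 4, 5, 6 and 7 at -0.30, 0.33, 0.25, 0.02 and -0.30. All IVF-ET animals lay within the range of the AI animals. IVF-ET minus AI was -0.15 ± 0.09 (95% interval -0.34 to 0.05, limma adjusted p = 0.657), with 3 arrays higher and 7 lower. With 1 animal left out it ran from -0.22 to -0.073, and with arrays scaled to one spread it was -0.26. Of all probes, 0.0217% were called.

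Whether the areas differed in IGFBP2 was tested as a difference of differences. The caruncular minus the intercaruncular effect was -1.01 ± 0.15, a 2.02-fold gap (95% interval -1.33 to -0.70, limma adjusted p = 0.0125). IGFBP2 was the only probe called of 13824, or 0.00723%. This fit also took arrays of an animal as independent (correlation estimated as 0), so for IGFBP2 its error and p may be too small. In the animals measured in both areas, the caruncular minus the intercaruncular value, each relative to the AI mean of its area, was -0.68, -0.69, -1.42, -1.37 and -0.92 in IVF-ET animals 1 to 5 and -0.26, -0.25 and 0.05 in AI animals 2, 4 and 7. Every IVF-ET animal was below every AI animal, as for 0.399% of all probes. The size hardly moved when an animal was left out, from -1.09 to -0.94, but the adjusted p then ran from 0.0164 to 0.193 and the call was lost in 9 of 12 such fits. It was lost without IVF-ET animal 4 (-0.99, limma adjusted p = 0.152) and without AI animal 4 (-1.04, limma adjusted p = 0.0713).

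**Figure D3:**
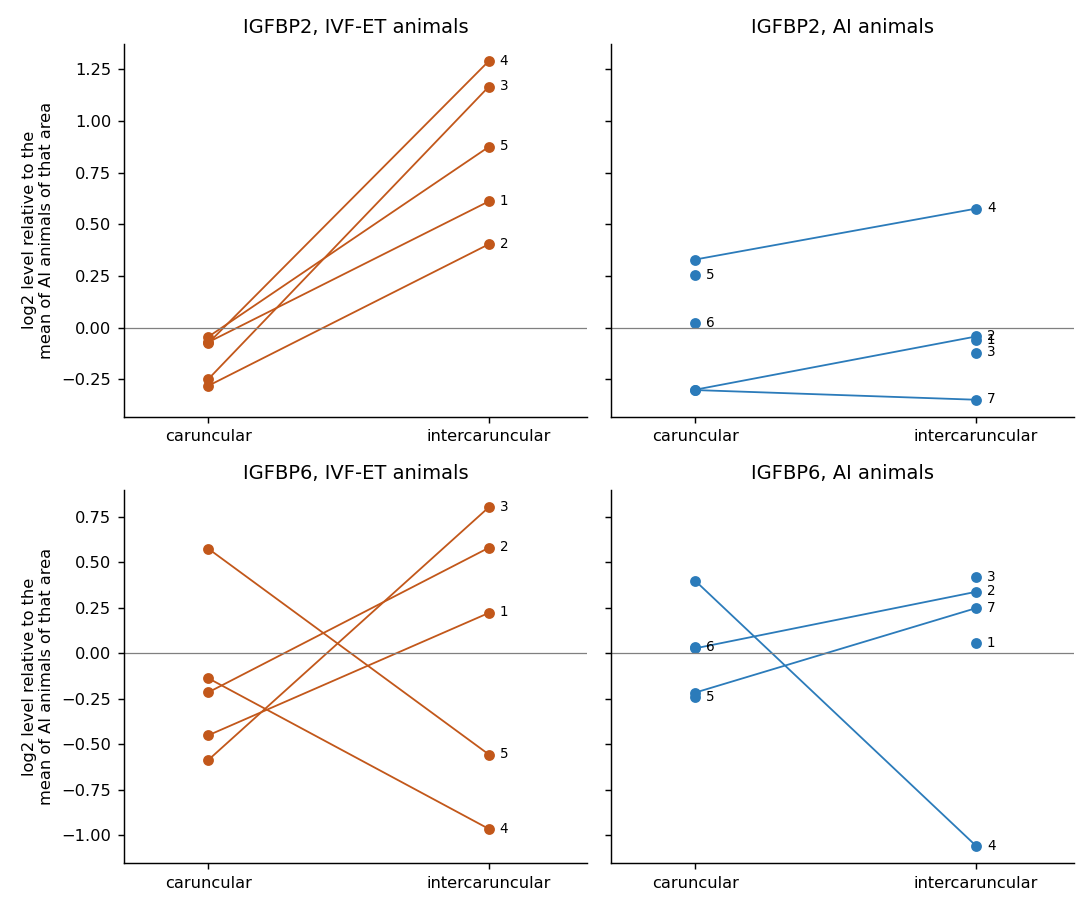
Level of IGFBP2 (top) and IGFBP6 (bottom) in IVF-ET animals (left) and AI animals (right), in log2 units relative to the mean of the AI animals of the same area, with a line joining the areas of 1 animal. All 5 IVF-ET lines of IGFBP2 climb from the caruncular to the intercaruncular area, by 0.68 to 1.42 units. The 3 AI lines change by at most 0.26, and IGFBP6 lines run both ways. Each area is centred on its own AI mean, so AI as a group is level by construction. No array compared the areas, so a climb is relative to AI and not a rise between areas.

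IGFBP6 did not separate IVF-ET from AI in either area. In caruncular tissue, IVF-ET animals 1 to 5 lay at -0.45, -0.22, -0.59, -0.14 and 0.58, and AI animals 2, 4, 5, 6 and 7 at 0.03, 0.40, -0.24, 0.03 and -0.22. IVF-ET minus AI was -0.16 ± 0.11 (95% interval -0.41 to 0.08, limma adjusted p = 0.676), and the ranges overlapped. With 1 animal left out it ran from -0.30 to -0.083.

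In intercaruncular tissue, IVF-ET animals 1 to 5 lay at 0.22, 0.58, 0.80, -0.97 and -0.56. AI animals 1, 2, 3, 4 and 7 lay at 0.06, 0.34, 0.42, -1.06 and 0.25. IVF-ET minus AI was 0.02 ± 0.18 (95% interval -0.37 to 0.41, limma adjusted p = 0.987). The lowest animal of each group was IVF-ET animal 4 or AI animal 4, the same animals whose interferon-stimulated genes stood high in this tissue. Their stromal marker means were -1.89 and -2.20 and their smooth muscle marker means -0.61 and -1.40, the lowest of their groups. In caruncular tissue the same animals had stromal means of -0.10 and 0.07 and smooth muscle means of 0.13 and -0.10. Leaving out IVF-ET animal 4 gave 0.17 and leaving out AI animal 4 gave -0.054. The difference between the areas was -0.18 ± 0.22 (95% interval -0.63 to 0.27, limma adjusted p = 0.896), or -0.29 without IVF-ET animal 4 and -0.11 without AI animal 4.

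The caruncular pools were the only arrays on which SCNT and AI met directly. IGFBP6 was higher in the SCNT pool on all 4 arrays, at 0.54, 0.40, 0.47 and 0.52, as were 11.1% of all probes. The means of the 2 dye-swapped pairs were 0.53 for SCNT pool 1 with AI pool 2 and 0.43 for SCNT pool 2 with AI pool 1. SCNT minus AI was 0.48 ± 0.08, a 1.40-fold difference (95% interval 0.27 to 0.70, limma p = 0.00196, adjusted p = 0.149), and of all probes 0% were called. Taking the 4 arrays as separate values gave a limma adjusted p of 0.0313, although arrays of a swap share their RNA. IGFBP2 went opposite ways in the pairs, with means of 0.57 and -0.12, and SCNT minus AI was 0.22 ± 0.17 (95% interval -0.21 to 0.66, limma adjusted p = 0.667). In the same pools, 9 of 10 measured trophoblast markers had positive values (median 0.70, with TKDP1 at 2.24 and TKDP4 at 1.99). The exception, PTI, stood at -0.91 (limma p = 7.63e-05, adjusted p = 0.0753). Positive values were seen in 0 of 9 epithelial markers (median -0.34) and in 5 of 9 stromal markers (median 0.04, with COL1A2 at 0.78 and COL1A1 at 0.56). None of these markers passed the test, and their part in the IGFBP6 value was not tested.

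**Figure D4:**
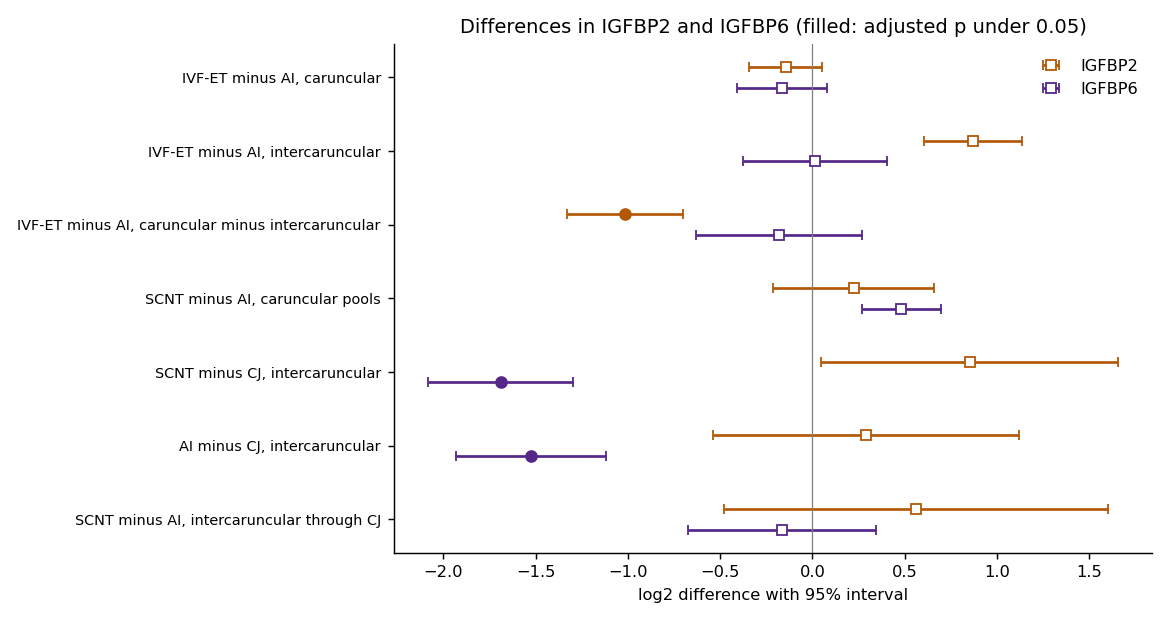
Fitted log2 differences of IGFBP2 and IGFBP6 in the 7 comparisons with 95% intervals, filled where the limma adjusted p was under 0.05. The filled points are IGFBP6 in SCNT minus CJ (-1.69) and AI minus CJ (-1.52) and IGFBP2 in the difference between the areas (-1.01).

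The rest of the IGF system was read from a list of 26 ligands, receptors, binding proteins and proteases, of which 14 besides the members were measured. Here and in the marker lists, a gene with several probes was counted by 1 of them. That was the probe with the fewest missing values, and among equals the first on the array. In SCNT minus CJ, 1 of 14 rose, 4 fell and 9 did not pass the test, beside 10.4% of all probes called higher and 11.3% called lower. The median difference was -0.05, against 0.01 over all probes. The insulin receptor INSR rose by 0.28 ± 0.08 (limma adjusted p = 0.013) and its other probe by 0.45. HTRA1, a secreted protease that cuts binding proteins, fell by 1.99 ± 0.41 (limma adjusted p = 0.00122), and PLAU, the urokinase plasminogen activator, fell by 1.60 ± 0.18 (limma adjusted p = 2.8e-06). IGFBP3, the main carrier of IGFs in blood, fell by 0.95 ± 0.29 (limma adjusted p = 0.0199), and IGFALS, which joins IGFBP3 and ligand in a larger complex, fell by 0.50 ± 0.12 (limma adjusted p = 0.00325). The ligand preferred by IGFBP6, IGF2, stood at 0.40 ± 0.16 (limma adjusted p = 0.0783). With 1 animal left out, the call of IGFBP3 held in 9 of 14 fits (-1.13 to -0.73), that of the first INSR probe in 11 (0.20 to 0.35) and those of HTRA1 and IGFALS in all 14.

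In AI minus CJ, 2 of the 14 rose and 2 fell, beside 6.92% of all probes called higher and 8.08% called lower. The median difference was 5e-04, against 0.01 over all probes. IGF2 rose by 0.90 ± 0.16 (limma adjusted p = 0.000643), or by 0.68 without AI animal 3 (limma adjusted p = 0.00975). IGFBP5, a matrix-bound binding protein whose gene is the direct neighbour of IGFBP2 in RefSeq's cattle annotation, rose by 0.69 ± 0.20 (limma adjusted p = 0.0245). IGFBP5 was 0.40 without AI animal 3 (limma adjusted p = 0.231), and its call held in 11 of 14 fits with 1 animal left out. PLAU fell by 1.17 ± 0.19 (limma adjusted p = 0.000226), or by 1.47 without AI animal 3, and IGFALS by 0.38 ± 0.12 (limma adjusted p = 0.0372), a call that held in 6 of 14 such fits (-0.47 to -0.23). The 2 probes of IGFBP4 disagreed, at 0.04 ± 0.06 and 0.89 ± 0.14, of which the second passed the test (limma adjusted p = 0.000163). IGFBP4 was counted above by its first probe, so as not passing. IGF1, INS, IGF1R, IGF2R, IGFBP1 and CTSD did not pass in either comparison with CJ.

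None of the 14 passed in either area of IVF-ET minus AI, in the difference between the areas, in the pools or in SCNT minus AI through CJ. IGFBP3 had similar values with IVF-ET in both areas, 0.85 ± 0.30 in caruncular tissue (limma p = 0.0148, adjusted p = 0.46) and 0.84 ± 0.32 in intercaruncular tissue (limma p = 0.0205, adjusted p = 0.488). ITGB1, an integrin subunit through which IGFBP2 can act, fell by 0.58 ± 0.11 in SCNT animals (limma adjusted p = 0.000514) and by 0.53 ± 0.11 in AI animals (limma adjusted p = 0.00246), each against CJ. It stood at 0.38 ± 0.09 in intercaruncular IVF-ET minus AI (limma adjusted p = 0.332).

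**Figure D5:**
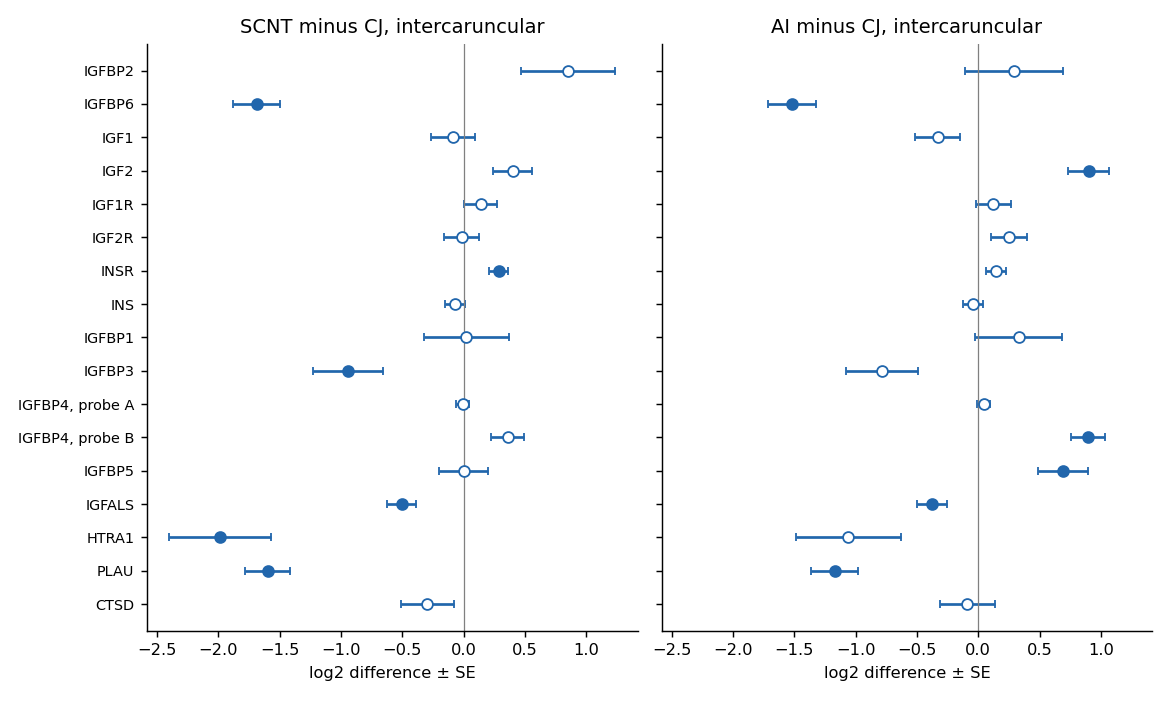
Log2 differences ± SE of both members and the 14 other measured genes of the IGF system in SCNT minus CJ (left) and AI minus CJ (right), filled where the limma adjusted p was under 0.05, with both probes of IGFBP4. IGFBP6 lies near PLAU and HTRA1 on the left, and IGF2, IGFBP5 and 1 probe of IGFBP4 are filled above 0 on the right.

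The genes whose ratios followed IGFBP6 most closely over the 44 arrays were PLAU (Pearson r = 0.939), RCN3 (0.939), ACTG2 (0.936), SWI5 (0.931) and PCOLCE (0.931). ACTG2 is an actin of smooth muscle, and PCOLCE enhances the processing of collagen precursors. On the 20 IVF-ET arrays alone these values were 0.587 to 0.772, and on the 20 arrays with CJ 0.955 to 0.971. The genes nearest to IGFBP2 were C3 (0.817), a complement component, FNDC3A (0.784), FOSL2 (0.767), an AP-1 transcription factor subunit, FRG1 (0.763) and MGP (0.747), an inhibitor of calcification in the matrix. MGP followed IGFBP2 on the arrays with CJ (0.891) and not on the IVF-ET arrays (-0.137). IGFBP2 and IGFBP6 correlated with r = -0.46. Arrays share animals and a dye orientation, so these values describe the arrays and have no p.

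Stromal and smooth muscle markers were lower in the same comparisons in which IGFBP6 fell. In SCNT minus CJ, 8 of 9 measured stromal markers (of 10 listed) fell and none rose, with a median of -1.40, and 5 of 6 smooth muscle markers (of 7 listed) fell, with a median of -2.10. Per animal, the stromal mean was -1.84 to -1.48 in SCNT animals and -0.56 to 0.34 in CJ animals. In AI minus CJ, 5 of the stromal and 3 of the smooth muscle markers fell, with medians of -0.94 and -1.36. AI animals had a stromal mean of -1.83 to 0.19, and the animal at 0.19 was AI animal 3, whose IGFBP6 was -1.74 and whose smooth muscle mean was -0.50. Epithelial markers had 4 of 9 risen and 1 fallen in SCNT minus CJ, with a median of 0.38. Of 10 measured trophoblast markers (of 15 listed), 4 rose in SCNT minus CJ (TKDP1, TKDP4, PAG9 and IFNT2, by 0.62 to 0.88) and 0 passed in AI minus CJ, although these belong to families of close copies that 1 probe may not tell apart. None of 8 measured leukocyte markers passed in either comparison. In bulk tissue, fewer cells of a type and less RNA per cell cannot be told apart, and the part of these markers in the IGFBP6 result was not tested.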

How the data were processed

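The authors deposited log2 ratios of Cy5 and Cy3 for each spot of each array. Per the labels' protocols, frozen tissue gave total RNA that was reverse-transcribed and dye-labelled. How the authors corrected background and normalized is not stated in the labels, and nothing was normalized further. The 27648 spots were averaged to 13824 probes. Probes measured on 80% or more of a comparison's arrays were fitted (R 4.3.3, limma 3.58.1) by generalised least squares. The model held the dye and a single correlation between arrays of the same animal. It was estimated over all probes as 0.13 in caruncular tissue, 0 in intercaruncular tissue with IVF-ET and 0.12 with CJ. For the difference between the areas it was also 0. Where it was 0, arrays of an animal counted as independent. The pairs of pools were averaged and tested against 0. Moderated p-values were adjusted over all probes tested (Benjamini-Hochberg), and calls used 0.05. Values per animal solve the arrays for the animals. On the IVF-ET arrays of an area this solution is exact, so the noise of the arrays stays in these values. Named genes are the members, IGF system genes past the threshold, IGFBP3 with IVF-ET (chosen after its values were seen), the IGFBP2 partner ITGB1 and the 5 most alike genes per member. The method was tested on simulated data for IVF-ET minus AI in a single area and for SCNT minus CJ. Every simulated probe had the same correlation, so the error of a probe with a higher one was not tested. The difference between the areas and the pools were not simulated. The members and lists were chosen with earlier results of these data known.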

Additional observations from a re-analysis of the deposited data

Results flagged for a closer look

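IGFBP6 in AI animal 4 of the intercaruncular IVF-ET arrays lay at -1.06, far from the other 4 AI animals, which lay between 0.06 and 0.42. This was the only such value in 24 groups looked at, 14 of animals and 10 of arrays, and chance alone marks about 1 group in 20. The same intercaruncular sample had a stromal marker mean of -2.20 and an interferon-stimulated mean of 4.19, and their part in its IGFBP6 value was not tested.

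The IVF-ET effect on IGFBP2 differed between the areas, at -0.15 in caruncular and 0.87 in intercaruncular tissue, with a difference of -1.01 (limma adjusted p = 0.0125). That fit took arrays of an animal as independent, so this p may be too small.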

How the results depend on the processing

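Of 240 alternatives to the 14 member results, 212 kept the direction and, where the alternative had a p, the side of the threshold. Single pairs of pools and separate fits of SCNT minus AI through CJ had no p. They counted as kept if the direction held and the value moved by at most 1 SE. IGFBP6 in SCNT minus CJ and AI minus CJ kept direction and side in all 21 alternatives each, from -1.90 to -1.38 and from -1.64 to -1.40. Some alternatives hardly touch a result, so these counts overstate how much was tested. Leaving out an SCNT animal kept IGFBP6 in AI minus CJ at -1.53 to -1.52. Leaving out an AI animal kept IGFBP2 in SCNT minus CJ at 0.85. The IGFBP2 difference between the areas was -0.99 with arrays scaled to one spread (limma adjusted p = 0.174) and -1.09 to -0.94 with 1 animal left out. The replicate block linking the areas of an animal gave -1.01 (limma adjusted p = 0.0125), but its correlation was estimated as 0, so that fit equals the one without it and tests nothing further. Intercaruncular IGFBP2 in IVF-ET minus AI passed without the dye term (0.87, limma adjusted p = 0.035). With 1 animal left out, IGFBP2 ran from 0.59 to 1.26 in SCNT minus CJ, from -0.076 to 1.18 in AI minus CJ (-0.051 without AI animal 4, -0.076 without CJ animal 2) and from -0.33 to 0.90 in SCNT minus AI through CJ. SCNT minus CJ of IGFBP2 passed when the CJ arrays were fitted separately per group (0.85, limma adjusted p = 0.0368). With 1 animal left out, IGFBP6 ran from -0.11 to 0.17 in intercaruncular IVF-ET minus AI and from -0.37 to 0.026 in the difference between the areas. Scaling turned IGFBP6 in SCNT minus AI through CJ to 0.14. In the pools, single pairs gave -0.12 and 0.57 for IGFBP2, and 4 separate arrays gave 0.48 for IGFBP6 (limma adjusted p = 0.0313). The calls of IGFALS and IGFBP5 in AI minus CJ and of IGFBP3 and INSR in SCNT minus CJ were lost in some alternatives, mostly with 1 animal left out. The cause of these changes was not tested. Spot intensities were not analysed here, so signal over background is unknown.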
